A study of Homo sapiens with 2 samples.

Results

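The 6 genes described here lie in the 8q24 region of chromosome 8, a stretch of the human genome that carries inherited risk of prostate cancer, and were chosen by name and map position among the 64081 genes of the count table. In map order they are PCAT1, CASC8, POU5F1B, CASC11, MYC and PVT1. All 6 were found in the table, 4 of them (PCAT1, POU5F1B, MYC and PVT1) on the plus strand and 2 (CASC8 and CASC11) on the minus strand. The RNA came from LNCaP, an androgen-sensitive prostate carcinoma cell line, after 48 h in medium in which the serum had been replaced by 10% charcoal stripped FBS, which the labels describe as absence of androgen. Poly(A)+ RNA of 2 biological replicates of this single condition was sequenced in a strand-oriented paired-end mode, so no comparison between conditions was possible. The table gives 1 value per gene for both replicates together, so no value has a replicate error, and every interval is a 95% interval of counting error alone.

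MYC encodes a transcription factor that pairs with MAX and drives genes of ribosome production, metabolism and the cell cycle. PVT1 is a long non-coding RNA (lncRNA) gene downstream of MYC, is often gained together with it in tumors and carries several miRNA genes. PCAT1, CASC8 and CASC11 are lncRNA genes named for prostate cancer or for susceptibility to cancer, and CASC11 starts next to MYC in the opposite direction. POU5F1B is a retrocopy of POU5F1, the gene of the pluripotency factor OCT4, and is classed as protein-coding.

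The table holds 9495309 read pairs counted on genes, 6.39% of the uniquely placed pairs, and the 3 genes with the highest counts took 48.5% of them. The study's methods name library type fr-secondstrand for LNCaP, in which read 1 has the sense of the transcript, and the reverse counting mode for paired-end strand-specific libraries, which credits a pair to the strand opposite to read 1. With both settings in force, a listed count reports transcription across a gene's exons from the other strand, so that the value listed for MYC would not be the level of MYC mRNA. All values below are therefore called listed counts, and those of the 6 genes are given with their strand and with what is annotated opposite. Protein-coding genes without an annotated exon of another gene opposite had a median listed count of 3, and those with such an exon had a median of 24. The labelled cell line could not be checked by levels for the same reason; the 8 prostate luminal genes looked up had listed counts from 8 for HOXB13 to 105 for STEAP2, the basal genes KRT5 and TP63 had 0 and 1, the stromal genes VIM and COL1A1 had 13 and 6, and the immune gene PTPRC had 1.

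The listed counts of the 6 genes were low, and the coding genes POU5F1B and MYC had the highest. POU5F1B had 36 read pairs (25.2 to 49.8), MYC 19 (11.4 to 29.7), PCAT1 and PVT1 11 each (5.49 to 19.7), CASC8 3 (0.619 to 8.77) and CASC11 1 (0.0253 to 5.57). The intervals of POU5F1B and MYC overlapped, and so did those of MYC, PCAT1 and PVT1. The interval of POU5F1B overlapped with that of MYC only. Together the 6 genes held 81 pairs, or 0.000853% of the pairs counted on genes. POU5F1B made up 44.4% of this sum (exact binomial interval 33.4% to 55.9%) and MYC 23.5% (14.8% to 34.2%). The 4 plus-strand genes held 77 pairs and both minus-strand genes together 4, or 4.94% (1.36% to 12.2%). As CPM, the count scaled to the total of pairs counted on genes, the values were 3.79 for POU5F1B (2.66 to 5.25), 2.00 for MYC (1.2 to 3.12), 1.16 for PCAT1 and PVT1 (0.578 to 2.07), 0.316 for CASC8 (0.0652 to 0.923) and 0.105 for CASC11 (0.00267 to 0.587).

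**Figure D1:**
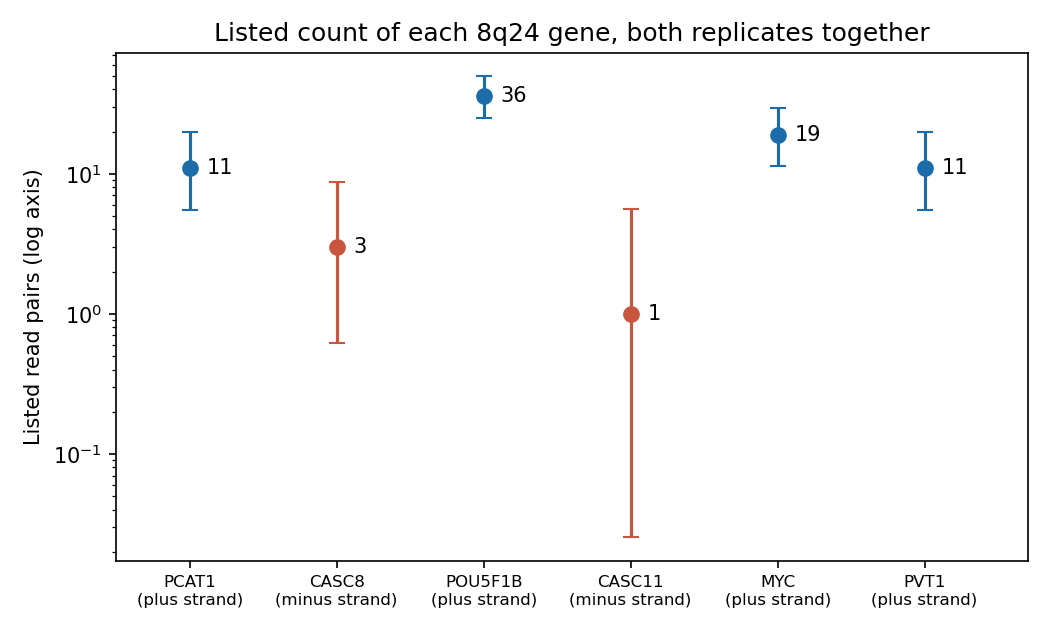
Listed read pairs (log axis) of the 6 genes in map order, for both replicates together; points are counts, bars are exact Poisson 95% intervals, blue marks plus-strand and red minus-strand genes. POU5F1B was highest at 36 pairs, and CASC8 and CASC11, the minus-strand genes, were lowest at 3 and 1.

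The counts above take no account of gene length, so the order of the genes was taken per kb of exonic length. With all annotated exons, the listed count per kb was 7.25 for POU5F1B (5.08 to 10.0), 3.11 for MYC (1.87 to 4.86), 1.28 for CASC8 (0.263 to 3.73), 0.595 for PCAT1 (0.297 to 1.06), 0.433 for PVT1 (0.216 to 0.774) and 0.194 for CASC11 (0.00492 to 1.08). Between neighbours in this order, POU5F1B was 2.33 times MYC, with an exact conditional interval of 1.30 to 4.30. On these lengths the other neighbours did not differ beyond counting error: the ratio of MYC to CASC8 was 2.44 (0.717 to 12.9), that of CASC8 to PCAT1 2.15 (0.384 to 8.12), that of PCAT1 to PVT1 1.38 (0.541 to 3.50) and that of PVT1 to CASC11 2.23 (0.324 to 95.8). Farther apart in the order, MYC was 7.19 times PVT1 (3.25 to 16.7) and 5.23 times PCAT1 (2.36 to 12.2).

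These ratios depended on how long the lncRNA genes are taken to be. The reference annotation is younger than the one used for counting, and in it PCAT1 has 34 transcripts over 863 kb and PVT1 has 190 transcripts over 393 kb. From transcripts numbered no later than those of the last genes in the table, PVT1 kept 7688 of its 25431 exonic nt, PCAT1 5737 of 18491 and MYC 3001 of 6109, whereas POU5F1B kept 4765 of 4964. On these older transcripts, a choice made after seeing the data, the listed count per kb was 7.56 for POU5F1B and 6.33 for MYC, and the ratio of POU5F1B to MYC was 1.19 (0.667 to 2.2), no longer beyond counting error. PCAT1 (1.92 per kb) and PVT1 (1.43) then stood above CASC8 (1.28), and MYC was 4.42 times PVT1 (2.00 to 10.3). With the longest annotated transcript as the length, MYC and PVT1 could not be told apart (ratio 1.14, 0.514 to 2.65), nor MYC and PCAT1 (0.925, 0.418 to 2.15). Other calls appeared: MYC was 4.96 times CASC8 (1.46 to 26.2) on older-numbered transcripts, and PVT1 was 14.8 times CASC11 (2.15 to 638) on the longest transcript. POU5F1B had the highest and CASC11 the lowest value under all 4 lengths, but on the longest transcript the lead of POU5F1B over MYC (1.48, 0.827 to 2.73), PCAT1 and PVT1 (1.68, 0.838 to 3.66) was within counting error, and CASC11 rests on 1 pair.

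**Figure D2:**
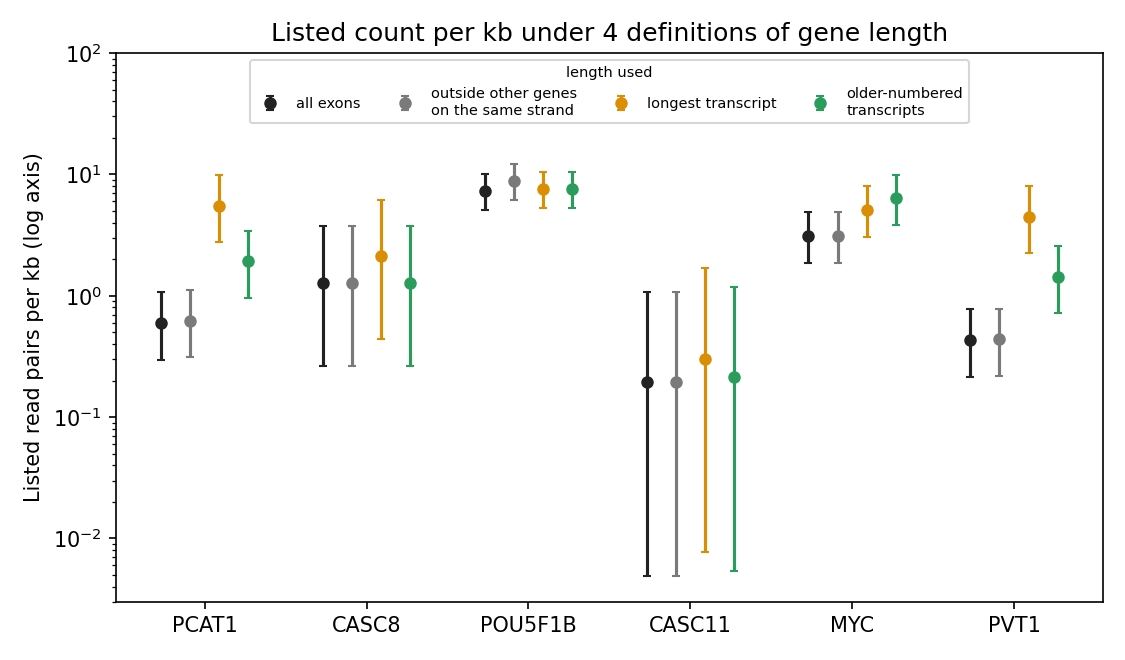
Listed read pairs per kb (log axis) of the 6 genes under 4 definitions of gene length; points are counts divided by length and bars are exact Poisson 95% intervals. POU5F1B stayed highest and CASC11 lowest, while PCAT1 and PVT1 moved from 0.595 and 0.433 per kb on all exons to 1.92 and 1.43 on older-numbered transcripts.

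A minimum of 10 listed counts was reached by 4 of the 6 genes, POU5F1B, MYC, PCAT1 and PVT1. Of the 55538 genes with a gene model, 26.5% reached it. By class, both protein-coding members passed, against 44.2% of 19404 protein-coding genes, and 2 of the 4 lncRNA members, against 28.4% of 12805 lncRNA genes. With so few members, these counts are a description. The count of POU5F1B was at percentile 75.2 of protein-coding genes and that of MYC at percentile 66.1. Those of PCAT1 and PVT1 were at percentile 72.6 of lncRNA genes, that of CASC8 at 62.4 and that of CASC11 at 53.9, where the median lncRNA gene had a count of 0. Per kb within the class, POU5F1B was at percentile 75.6, MYC at 63.5, CASC8 at 58.3, PCAT1 at 54.5, PVT1 at 53.3 and CASC11 at 51.3.

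In the current annotation, POU5F1B spans 128334428 to 128432311 on chromosome 8 of GRCh37 (hg19). This lies wholly within the span of CASC8 (128302053 to 128494384) on the opposite strand. No exon of either gene lies opposite an exon of the other. Only 1 of the 3 transcripts of POU5F1B is older-numbered, so its span in the annotation used for counting may differ. POU5F1B had 36 listed pairs with no annotated exon of any gene opposite, the highest count of the 6. CASC8, within whose span POU5F1B lies, had 3. PCAT1 and POU5F1B, both on the plus strand, share 848 exonic nt in the current annotation, where a counter that drops ambiguous pairs could credit neither gene. Without these nucleotides the ratio of POU5F1B to PCAT1 per kb was 14 (6.99 to 30.6), beside 12.2 (6.07 to 26.6) with all exons, 3.94 (1.96 to 8.58) on older-numbered transcripts and 1.37 (0.681 to 2.98) on the longest transcript, the last within counting error.

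As a retrocopy, POU5F1B resembles POU5F1 and its other copies, and pairs that align equally well to several of them are not counted on any. Of 4889 distinct windows of 75 nt, the read length of the libraries, in POU5F1B transcripts, 283 (5.79%) occur unchanged in POU5F1 transcripts 34 (0.695%) in POU5F1P3 and 31 (0.634%) in POU5F1P4. Windows shared with PCAT1 transcripts, which overlap POU5F1B on the same strand, number 633 (12.9%). The windows outside those 283 differ from every copy looked up by at least 1 base. POU5F1 itself had a listed count of 69 (53.7 to 87.3), with 8.64% of its exonic length opposite TCF19, and POU5F1P4 also had 69, with no exon opposite. POU5F1P3 had 4 and POU5F1P6 had 1, and POU5F1P5 and POU5F1P7 were at 0, which allows up to 3 counts each (a one-sided 95% limit). Per kb, POU5F1P4 was at 63.6 and POU5F1 at 24, both above the 7.25 of POU5F1B.

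MYC spans 128747680 to 128755197 and CASC11 spans 128698588 to 128751233, with its annotated start 3.55 kb inside MYC. In the current annotation, 194 exonic nt of both genes lie opposite each other, 3.18% of the exonic length of MYC and 3.77% of that of CASC11. In the older-numbered transcripts they share none. MYC had 19 listed pairs and CASC11 1, a ratio per kb of 16.0 (2.55 to 665) on all exons and of 29.9 (4.75 to 1240) on older-numbered transcripts. With the settings named above, the pairs listed for CASC11 would come from the strand of MYC and those listed for MYC from the strand of CASC11. The related gene MYCN has a similar arrangement on chromosome 2: MYCN had a listed count of 0, which allows up to 3, and its antisense gene MYCNOS, with 98 exonic nt opposite MYCN, had 10 (4.80 to 18.4). MYCL, another gene of the family, had 1, with 4.55% of its exonic length opposite MYCL-AS1.

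PVT1 spans 128806772 to 129199347 and starts 59.1 kb downstream of the MYC start on the same strand. Its listed count of 11 contrasts with that of RNU4-25P, a copy of the U4 small nuclear RNA gene on the minus strand at 129022628 to 129022857, inside the span of PVT1. RNU4-25P had 261 listed pairs (230 to 295) on 230 nt, the highest count of the region and more than 3 times the sum of the 6 genes, and 63 of its nucleotides lie opposite an exon of PVT1. The pseudogene ENSG00000278275, with 295 exonic nt opposite PVT1, is not analysed here. Under the settings named above, pairs listed for RNU4-25P would come from the PVT1 strand. U4 genes and pseudogenes form a family of similar copies, and whether pairs of another copy were placed here was not tested. The 3 miRNA genes listed inside PVT1 on its own strand, MIR1205, MIR1207 and MIR1208, were at 0, which allows up to 3 counts each. The RNU1-106P pseudogene on the same strand was also at 0.

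PCAT1 begins at 127568568, 1179 kb upstream of the MYC start, and the first part of its model lies opposite LRATD2 (127564688 to 127570723, minus strand). They share 1409 exonic nt, 7.62% of the exonic length of PCAT1, and 1109 nt in older-numbered transcripts. LRATD2 had 19 listed pairs (11.4 to 29.7) beside 11 for PCAT1. Within the long span of PCAT1, 4 minus-strand genes with no exon opposite an exon of PCAT1 also reached 10 listed counts. The processed pseudogene ENSG00000224722 had 37 (26.1 to 51.0) and lies along its whole length opposite an exon of PRNCR1, a lncRNA gene not analysed here. The processed pseudogene ENSG00000253543 had 18 (10.7 to 28.4), the lncRNA gene CASC19 had 12 (6.20 to 21.0) and the lncRNA gene ENSG00000253573 had 10 (4.80 to 18.4). Under the counting settings, all of these would report the plus strand, that of PCAT1.

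Across the 3234 kb from LRATD2 to GSDMC, 34 genes of the annotation are listed, 10 of which reached 10 counts, beside 26.5% of all genes with a model, and 20 of which were at 0, beside 28821 of those 55538 genes. Of the 16 listed plus-strand genes, only PCAT1, POU5F1B, MYC and PVT1 had pairs, 77 in all. The other 12, mostly small RNA genes and pseudogenes, were at 0. Another 10 annotated genes of the interval are not listed, and the 6259 XLOC identifiers have no position here. Whether the rest of the plus strand was silent is therefore not known. The 18 minus-strand genes held 364 pairs, 82.5% of the 441 pairs of the interval (78.7% to 86.0%). Minus-strand genes held 67.9% of the pairs over all genes with a model and 40.8% on chromosome 8. These are shares of pairs, which few genes can set: 3 genes took 48.5% of all pairs counted on genes. By number of genes with at least 10 counts, the strands were close, with 7382 plus-strand and 7332 minus-strand genes over all genes with a model. Without RNU4-25P, an alternative chosen after its value was seen, the minus-strand share of the interval was 57.2% (49.6% to 64.6%). The size of the interval's share thus rests on 1 gene. Downstream of PVT1 the listed counts were 1 for LINC00824, 0 for CCDC26 and 2 for GSDMC, a gene of the pore-forming gasdermin family.

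Genes that work with MYC were looked up from a fixed list, the MAX network of proteins that share MAX as a partner or are related to it. Of its 12 genes, 7 reached 10 counts, against 44.2% of all protein-coding genes, and the median count was 27.5, against 6. MXD3, a MAX partner that opposes MYC, had 10426 pairs (10227 to 10628), with 24.2% of its exonic length opposite PRELID1. MLX had 264 (233 to 298), with 18.2% opposite PSMC3IP, and MNT had 141 (119 to 166), with 12.2% opposite a lncRNA gene. Over the whole list, the median was 13 in the 8 genes with an exon of another gene opposite, 4 of which reached 10 counts, and 38.5 in the 4 genes without one, 3 of which did. Of all protein-coding genes with such an exon, 63.9% reached 10 counts and the median was 24. Of those without one, 32.8% reached 10 counts and the median was 3. MAX itself, with 16.1% opposite, had 3 (0.619 to 8.77). MXD4 was at 0, which allows up to 3 counts.

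Of 20 genes known as MYC targets, 12 reached 10 counts, against 44.2% of all protein-coding genes, and the median was 12.5, against 6. CDK4, a cell cycle kinase, was highest at 301 (268 to 337), with 44.2% of its exonic length opposite TSPAN31. POLR1B, a subunit of RNA polymerase I, had 109 (89.5 to 131), with 1.12% opposite, and EIF4E, the cap-binding translation factor, had 88 (70.6 to 108), with 1.25% opposite. NPM1, a nucleolar protein, had 81 (64.3 to 101) with no exon opposite. In the 11 targets without an exon opposite, counts ran from 2 for SRM to 81 for NPM1, with a median of 13, and 7 of them reached 10 counts; the 9 targets with one had a median of 11, and 5 reached 10 counts, beside the same 32.8% and 63.9% of all protein-coding genes. TERT and NOP58 were at 0, which allows up to 3 counts each.

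A list of 21 lncRNA genes held CASC and PCAT genes, with LINC00824 and CCDC26 of 8q24. It left out the 8q24 lncRNA genes PVT1, with 11 counts, and ENSG00000253573, with 10. CCAT1, CCAT2, PRNCR1, LINC00976, LINC00977, TMEM75 and some miRNA genes were also planned for this list but are not among the 21. Of the 21 genes, 3 reached 10 counts, against 28.4% of all lncRNA genes. Another 9 (CASC6, CASC15, CASC16, CASC17, CASC18, CASC22, CASC23, CCDC26 and PCAT4) were at 0. PCAT18 on chromosome 18 had 26 (17.0 to 38.1), with 49.0% of its exonic length opposite other genes, CASC19 had 12 and PCAT1 had 11. The median was 1. All 3 are among the 9 genes of this list with an exon of another gene opposite, and none of the 12 without one reached 10 counts. Outside the list, ENSG00000253573 reached 10 counts with no exon opposite, and PVT1 had 11 with one. Of all lncRNA genes, 51.6% of those with such an exon and 15.9% of those without reached it. CASC8, with no exon opposite, had 3.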

How the data were processed

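Poly(A)+ RNA of 2 biological replicates of LNCaP cells was sequenced on an Illumina HiSeq 2000. According to the methods and processing notes, the authors used Trimmomatic 0.30, TopHat2 2.0.12 with Bowtie2 2.2.3 on hg19, and HTSeq 0.6.1p1. The deposited counts are whole numbers without normalization, in 1 column for both replicates. The 5 summary categories name no gene and were left out (93.5% of uniquely placed pairs had no feature).

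CPM used the 9495309 pairs counted on genes. Ensembl identifiers were matched without version to GENCODE 44 models on GRCh37 (55538 genes), an annotation younger than the one counted; the 6259 XLOC identifiers have no model here. Exonic length is the union of all exons. Percentiles count ties at mid-rank. Intervals are exact Poisson, exact binomial or, for ratios, exact conditional binomial intervals at 95%. The one-sided 95% limit of a count of 0 is 3 counts. The Poisson and ratio intervals were checked on simulated Poisson counts, which follow the intervals' own model, but the binomial intervals of shares were not. All intervals cover counting error only, since PCR copies of a molecule cannot be recognised. No test was made, and agreement between replicates is unknown.

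The members and lists were chosen with earlier results of these data known. The text names the members, all genes of the interval with at least 10 counts or with exons opposite a member, POU5F1 copies, the MYC family, and the 3 highest and the lowest genes of each list; MAX, NPM1, SRM, MYCNOS, RNU1-106P, the miRNA genes, LINC00824 and GSDMC were named after their values were seen. Alternatives varied the library size, gene length, count minimum and percentile background. Python 3.11.15, numpy 2.4.6, pandas 2.3.3, scipy 1.17.1 and matplotlib 3.10.9 were used.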

Additional observations from a re-analysis of the deposited data

How the results depend on the processing

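Of 96 alternative values, 50 stayed within the counting interval of the main value (for counts of genes, within 1.5 times), 45 moved and 1 ratio beyond counting error reversed: that of MYC to PCAT1, 5.23 on all exons, was 0.925 on the longest transcript, within counting error. Without the 3 highest genes in the library size, CPM became 2.25 for PCAT1 and PVT1, 7.36 for POU5F1B and 3.89 for MYC, and CPM per kb 0.122 for PCAT1, 1.48 for POU5F1B, 0.636 for MYC and 0.0885 for PVT1. With all uniquely placed pairs, CPM was 0.0740 for PCAT1 and PVT1, 0.0202 for CASC8, 0.242 for POU5F1B and 0.128 for MYC, and CPM per kb 0.00400 for PCAT1, 0.00858 for CASC8, 0.0488 for POU5F1B, 0.0209 for MYC and 0.00291 for PVT1. Library size multiplies all genes alike and leaves their order as it is. By the longest transcript, CPM per kb was 0.582 for PCAT1, 0.538 for MYC and 0.473 for PVT1, and by older-numbered transcripts 0.202, 0.667 and 0.151; on all exons the values are 0.0627, 0.328 and 0.0456. The ratio of POU5F1B to MYC fell from 2.33 to 1.19 with older-numbered transcripts, and that of CASC8 to PCAT1 from 2.15 to 0.383 with the longest transcript and 0.666 with older-numbered transcripts, a turn of direction within counting error throughout. The longest transcript also took MYC to PVT1 from 7.19 to 1.14 and POU5F1B to PCAT1 from 12.2 to 1.37 (3.94 with older-numbered transcripts), all by the construction of the lengths. With a minimum of 30 counts, 1 member (POU5F1B), 3 genes of the interval and 5 MYC targets passed. Among genes with at least 1 count, the percentiles were 47.6 for PCAT1 and PVT1, 24 for CASC8, 68.9 for POU5F1B, 6.56 for CASC11 and 57.7 for MYC; among genes of the same class, 75.2 for POU5F1B and 66.1 for MYC; and for counts per kb, 58.0 for PCAT1, 77.2 for POU5F1B, 70.0 for MYC and 56.4 for PVT1. Without RNU4-25P, the minus-strand share of the interval fell from 82.5% to 57.2%. Leaving out a replicate was not run, since both share 1 column. No paired analysis was possible because there is 1 group and no column per replicate. Depth limits CASC8 and CASC11 most: 3 and 1 pairs do not separate them from each other or from the 3 counts that a count of 0 allows.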
